A study of Homo sapiens with 15 samples.

Results

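The gene set described here holds 48 human genes that license replication origins, unwind DNA and copy it at the replication fork, together with enzymes that supply deoxynucleotides. Members were chosen by symbol, and each was matched to the array through the RefSeq accession of its probes. All 48 of the 48 genes had a RefSeq probe that was well above background, out of 12132 genes measured in this way and 19483 genes with a RefSeq probe on the array. Each gene was read from its brightest such probe.

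Before a cell enters S phase, the origin recognition complex, CDC6 and CDT1 load the MCM2 to MCM7 helicase onto DNA as an inactive ring, and geminin blocks CDT1 once S phase has begun so that no origin is licensed again. The kinase CDC7 with its partner DBF4, and then CDC45 and the GINS complex, turn the loaded ring into the moving helicase that opens the fork. Polymerase alpha with primase starts each strand, replication factor C loads the PCNA clamp, and polymerases delta and epsilon extend it, so that transcripts of these genes are abundant in proliferating cells such as carcinoma lines.

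The study used PE/CA-PJ41, an established line from a human oral squamous cell carcinoma. NCE denotes cells that the labels give an empty transfection vector, although the study's text also speaks of them as un-transfected, and CYGB+ denotes cells that carry human cytoglobin cDNA in pCMV6-Neo, under the vector's CMV promoter. Stable lines were picked by cloning ring under G418, and the study's methods name 1 clone for CYGB+, so a difference between clones and an effect of cytoglobin cannot be told apart. Both kinds of cell were kept in supplemented medium for 24 h before RNA was extracted, with 3 biological replicates per group. Each NCE replicate was hybridised to 3 arrays (9 arrays) and each CYGB+ replicate to 2 arrays (6 arrays), and array repeats were averaged before any comparison. The labels give Cy3, read in the green channel, as the dye of every sample, whereas the study's methods give Cy5 for control cells and Cy3 for CYGB+ cells. The methods also speak of normalising 1-colour data, and the deposited matrix follows the green signal of every array, NCE included. The values here are green-channel values grouped by the labels, and which account holds for the NCE arrays could not be settled, so each difference below rests on the labels' account.

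The probe for CYGB, the haem protein that was introduced, read 11.85, 12.15 and 11.96 in NCE replicates 1 to 3 and 11.38, 12.45 and 11.97 in CYGB+ replicates 1 to 3 on the normalised log2 intensity scale. The groups overlapped, with both the lowest and the highest value in CYGB+, and the difference (CYGB+ minus NCE) was -0.055 (95% interval -0.63 to 0.52, adjusted p = 0.906). The probe was well above background on all 9 NCE arrays and all 6 CYGB+ arrays, although the study's name for NCE is non-cytoglobin expressing. The sign of the difference turned in 4 of 20 alternative settings, and the probe's place relative to the cDNA in the vector is not given, so these values do not check the labels. NCE and CYGB+ below mean the arrays so labelled.

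Between 48.9% and 57.2% of gene probes were well above background on the 15 arrays, with a median of 50.9% in NCE and 52.4% in CYGB+. One CYGB+ array (replicate 1, array repeat 1) stood apart, with a mean correlation of 0.928 with the other CYGB+ arrays where the next lowest was 0.969, and an NCE array (replicate 3, array repeat 2) had 0.969 where the next lowest was 0.980. The arrays lay on 2 slides. Slide 1 held 8 NCE arrays, and slide 2 held all 6 CYGB+ arrays and 1 NCE array (replicate 1, array repeat 3), so that slide and group were nearly the same split.

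In CYGB+, 7 of the 48 replication genes were lower (limma, adjusted p under 0.05), namely GINS1, MCM8, POLE2, PCNA, GINS4, MCM4 and DBF4, beside 6.97% of all 12132 genes and 5.91% of all 19791 probes tested. None of the 48 (0 genes) was higher, beside 6.76% of all genes and 6.09% of all probes. At an unadjusted p under 0.05, limma gave 11 members lower and 3 higher. The t-test named in the study's methods gave 8 lower and 5 higher at that threshold, beside 2468 lower and 2611 higher of all 19791 probes. After adjustment of the t-test, 1 of these members (GINS1) was lower and 0 were higher. No count over all probes is given here for limma without adjustment, so its 11 lower and 3 higher members are not read as a lean of the set. Differences lay on both sides of 0: 24 of 48 members had a difference below 0, the median was -0.0020 against 0.013 over all genes, and the middle of the distribution ran from -0.29 to 0.19 (quartiles) against -0.21 to 0.22. Each array read bulk RNA, so fewer cells holding a transcript and less of it per cell cannot be told apart.

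**Figure D1:**
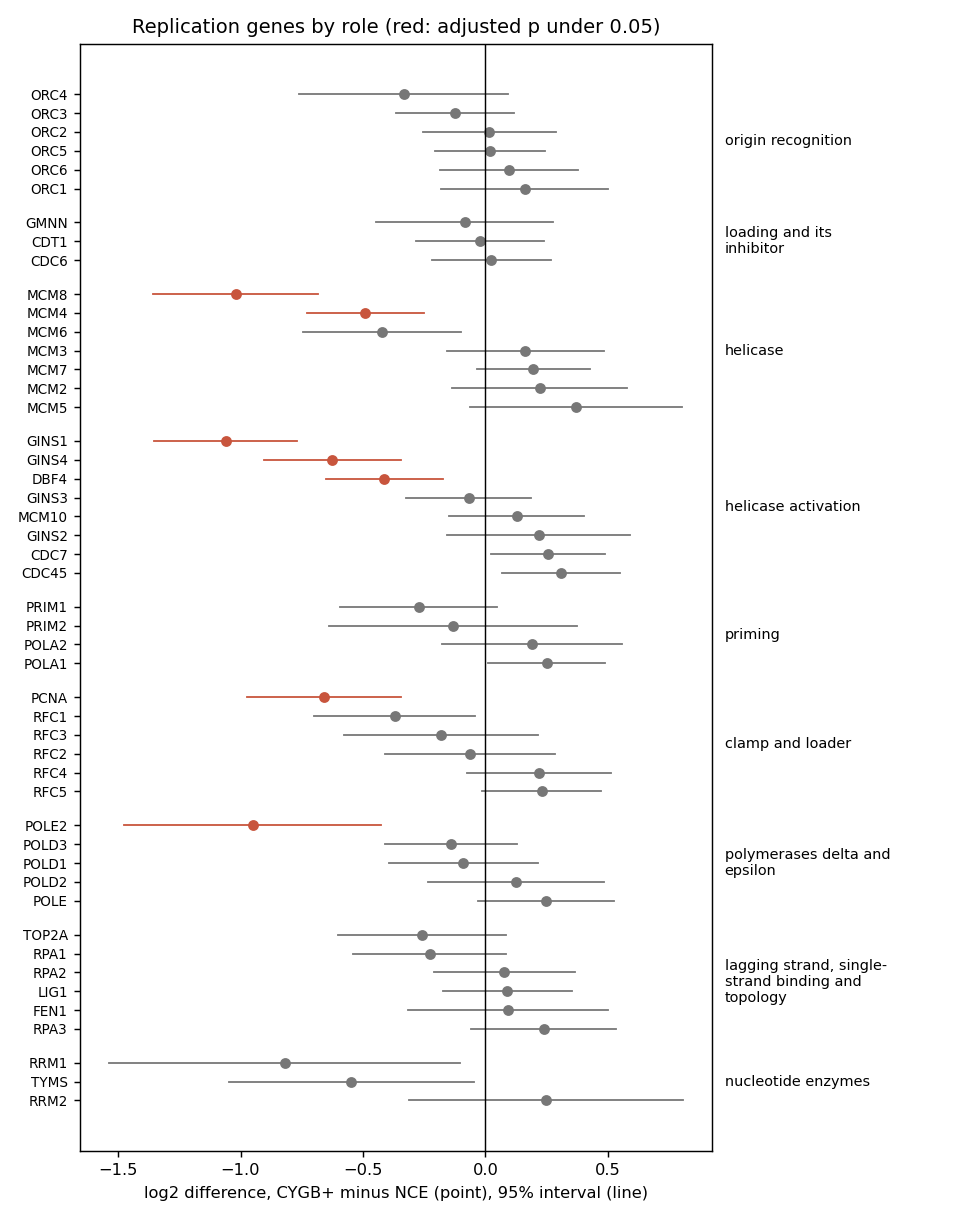
Log2 difference in normalised intensity (CYGB+ minus NCE, horizontal axis) for the 48 replication genes, grouped by role, with 95% intervals as lines. The 7 genes in red (adjusted p under 0.05) lie between -1.06 and -0.41, and the other 41 lie on both sides of 0.

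Set out by role in the plot of all members, the lower genes fell into 4 of the 9 roles. Over all genes 6.97% were lower. With 3 to 8 genes in each role these counts are a description, and a link to role was not tested. Among the helicase genes 2 of 7 were lower, among the helicase activators 3 of 8, among the clamp and its loader 1 of 6 and among polymerases delta and epsilon 1 of 5. None was lower among the 6 origin recognition genes, the 3 genes of loading and its inhibitor, the 4 priming genes, the 6 genes of the lagging strand, single-strand binding and topology, or the 3 nucleotide enzymes.

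The GINS complex joins CDC45 and the MCM ring to make the active helicase, and 2 of its 4 subunits were lower in CYGB+. GINS1 read 11.96, 12.06 and 12.24 in NCE replicates 1 to 3 and 11.13, 10.84 and 11.10 in CYGB+. All 3 CYGB+ replicates lay below the lowest NCE replicate, by far more than the replicates of a group differed. The difference was -1.06 (95% interval -1.35 to -0.77, a 2.09-fold lower mean, limma adjusted p = 0.00506), the largest among the 48 genes in this fit. With slide as a term TYMS (-1.02) and MCM8 (-0.97) had larger differences than GINS1 (-0.93). In the deposited matrix POLE2 (-1.10) and MCM8 (-1.02) had larger ones than GINS1 (-0.99). GINS4 read 10.71, 10.63 and 10.97 in NCE and 10.22, 10.07 and 10.14 in CYGB+. Here too the 3 CYGB+ values lay below every NCE value (difference -0.63, 95% interval -0.91 to -0.35, adjusted p = 0.0195). The other GINS subunits overlapped between groups, with differences of 0.22 for GINS2 (adjusted p = 0.407) and -0.069 for GINS3 (adjusted p = 0.719). GINS2 was at -0.25 with slide as a term and at 0.091 without the CYGB+ array that stood apart. GINS3 was at -0.30 and -0.13 in these fits.

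DBF4, the subunit that activates the CDC7 kinase, was also lower. It read 9.25, 9.28 and 9.33 in NCE and 8.75, 8.97 and 8.91 in CYGB+, without overlap, and the difference was -0.41 (95% interval -0.65 to -0.17, adjusted p = 0.0411). The kinase CDC7 itself had a difference of 0.26 (adjusted p = 0.139) with every CYGB+ replicate above every NCE replicate, and CDC45 one of 0.31 (adjusted p = 0.0948), also without overlap. With slide as a term these differences were smaller, 0.081 for CDC7 and 0.11 for CDC45, and CDC7 was at 0.17 without the CYGB+ array that stood apart. CDC45 passed as higher when arrays were fitted separately (adjusted p = 0.0309, range over 19 alternative settings 0.0309 to 0.895). That fit enters array repeats as linked samples and not as averages. MCM10, which helps the helicase to start, had a difference of 0.13 (adjusted p = 0.512), which was -0.00076 without the CYGB+ array that stood apart and -0.037 with slide as a term. The DBF4 difference fell short of the threshold without the CYGB+ array that stood apart (-0.26, adjusted p = 0.110) and in each of the 6 fits that left out a replicate (adjusted p from 0.0552 to 0.159).

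Of the MCM2 to MCM7 ring only MCM4 passed the test. MCM4 read 11.26, 11.29 and 11.45 in NCE and 10.91, 10.83 and 10.80 in CYGB+, and all 3 CYGB+ values lay below the NCE values (difference -0.49, 95% interval -0.73 to -0.25, adjusted p = 0.0249). MCM6 read 11.37, 11.35 and 11.50 in NCE and 11.25, 10.90 and 10.80 in CYGB+. Its groups did not overlap either, but the test was not passed (difference -0.42, 95% interval -0.74 to -0.10, adjusted p = 0.0899), and without the CYGB+ array that stood apart it was (-0.55, adjusted p = 0.00555, range over 19 alternative settings 0.00424 to 0.341).

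The other ring subunits had differences above 0 that did not pass the test. MCM5 read 10.22, 9.93 and 9.81 in NCE and 10.45, 10.63 and 9.99 in CYGB+ (difference 0.37, adjusted p = 0.232), with CYGB+ replicate 3 inside the NCE range. MCM2 read 11.26, 11.03 and 11.03 in NCE and 11.11, 11.63 and 11.24 in CYGB+ (difference 0.22, adjusted p = 0.378), and the groups overlapped. Its difference was 0.36 without the CYGB+ array that stood apart (adjusted p = 0.0778), 0.38 without this array, the next lowest CYGB+ array and the lowest NCE array (adjusted p = 0.0315) and 0.079 with slide as a term (adjusted p = 0.962). MCM7, the brightest of the 48, read 13.74, 13.81 and 13.90 in NCE and 13.93, 14.04 and 14.07 in CYGB+ (difference 0.20, adjusted p = 0.237). Every CYGB+ value of MCM7 lay just above the highest NCE value. MCM3 read 12.45, 12.32 and 12.24 in NCE and 12.52, 12.72 and 12.26 in CYGB+ (difference 0.16, adjusted p = 0.469), with overlap, and its sign turned when slide was a term of the fit (-0.25). The ring is built from equal numbers of each subunit, and the differences of their transcripts ran from -0.49 to 0.37.

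MCM8 is not part of that ring but a helicase of its own that works with MCM9 in recombination repair and at forks. It read 10.468, 10.471 and 10.697 in NCE and 9.299, 9.502 and 9.774 in CYGB+. The groups lay well apart, with the highest CYGB+ value far below the lowest NCE value, and the difference was -1.02 (95% interval -1.36 to -0.68, a 2.03-fold lower mean, adjusted p = 0.00784). Its partner MCM9, from the list of other fork genes, had a difference of 0.085 (adjusted p = 0.591).

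**Figure D2:**
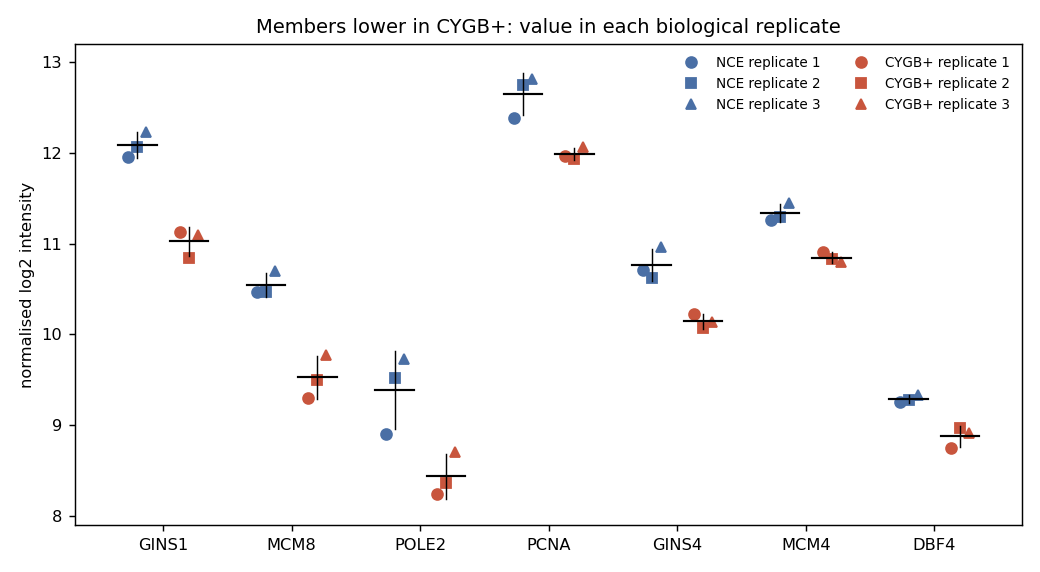
Normalised log2 intensity (vertical axis) of the 7 replication genes that were lower in CYGB+, for NCE (blue) and CYGB+ (red); each symbol is the mean of the array repeats of 1 biological replicate, horizontal bars are group means and vertical lines are 1 SD. In each of the 7 genes, which were picked by adjusted p, the 3 CYGB+ replicates lie below the 3 NCE replicates. Differences run from GINS1 (-1.06) to DBF4 (-0.41). Some members that did not pass the test, such as MCM6 and RRM1, did not overlap either, while others did. The share of all genes without overlap is not given here.

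PCNA, the sliding clamp that tethers the polymerases to DNA, read 12.38, 12.74 and 12.82 in NCE and 11.97, 11.93 and 12.07 in CYGB+. NCE replicate 1 was the lowest of its group and still lay above all 3 CYGB+ replicates, which were close together. The difference was -0.66 (95% interval -0.97 to -0.34, a 1.58-fold lower mean, adjusted p = 0.0240), and a further PCNA probe, dimmer than the first, gave -0.55 (adjusted p = 0.138). The 5 subunits of replication factor C, which opens the clamp and places it on DNA, spread from -0.37 for RFC1 (adjusted p = 0.132) to 0.23 for RFC5 (adjusted p = 0.192), and none passed the test. RFC5 passed as higher when arrays were fitted separately, with array repeats as linked samples (adjusted p = 0.0405, range over 19 alternative settings 0.0405 to 0.497). The difference of RFC1 was -0.21 without the CYGB+ array that stood apart and 0.11 with slide as a term.

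POLE2, the accessory subunit of the leading-strand polymerase epsilon, read 8.90, 9.52 and 9.73 in NCE and 8.24, 8.36 and 8.71 in CYGB+. NCE replicate 1 sat well below the other NCE replicates and only just above CYGB+ replicate 3, so that the groups were separate by a narrow margin. The difference was -0.95 (95% interval -1.48 to -0.43, a 1.93-fold lower mean, adjusted p = 0.0359). The catalytic subunit POLE had a difference of 0.25 (limma, adjusted p = 0.215). The polymerase delta subunits POLD1, POLD2 and POLD3 had -0.090, 0.12 and -0.14 (limma, adjusted p from 0.463 to 0.687). With slide as a term POLD1 was at -0.0079 and POLD3 at 0.073. Without the CYGB+ array that stood apart POLD1 was at 0.027 and POLD2 at 0.25. Without the CYGB+ array that stood apart POLE passed the test as higher (0.35, adjusted p = 0.0337, range over 19 alternative settings 0.0204 to 0.639).

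None of the origin recognition genes, or of the genes of loading and its inhibitor, passed the threshold. CDC6, the ATPase that helps the origin complex to load the helicase, read 6.63, 6.78 and 6.80 in NCE and 6.76, 6.68 and 6.85 in CYGB+, the dimmest of the 48 genes, with overlapping groups (difference 0.025, adjusted p = 0.898). CDT1, the other loading factor, read 10.85, 11.01 and 11.08 in NCE and 10.87, 10.91 and 11.09 in CYGB+ (difference -0.021, adjusted p = 0.920). Geminin (GMNN), its inhibitor, read 11.12, 11.55 and 11.56 in NCE and 11.20, 11.26 and 11.51 in CYGB+ (difference -0.084, adjusted p = 0.756). In all of these the groups lay on top of each other, and the sign of each turned under some settings: in 6 of 19 for CDC6, 6 of 20 for CDT1 and 4 of 20 for GMNN.

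Among the 6 subunits of the origin recognition complex, which marks the sites where replication can start, ORC4 had the largest difference. It read 9.43, 9.74 and 9.63 in NCE and 8.87, 9.38 and 9.55 in CYGB+ (difference -0.33, 95% interval -0.76 to 0.094, adjusted p = 0.271). CYGB+ replicate 1 alone was far below the rest, and CYGB+ replicate 3 lay inside the NCE range. Without the CYGB+ array that stood apart ORC4 was at -0.13, and with slide as a term at -0.13, and it no longer had the largest difference of the complex. The other subunits ran from -0.12 for ORC3 to 0.16 for ORC1. These values are from the brightest probes. Dimmer probes gave -0.42 for ORC5 (limma, adjusted p = 0.238), 0.10 for ORC4 (adjusted p = 0.512) and -0.023 for ORC2 (adjusted p = 0.928). Each had the sign opposite to that of the brightest probe.

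The 4 genes of the polymerase alpha and primase complex, which lays the first stretch of RNA and DNA, had differences from -0.27 to 0.25. PRIM1, the catalytic primase subunit, read 9.10, 9.45 and 9.34 in NCE and 9.16, 8.82 and 9.10 in CYGB+ (difference -0.27, 95% interval -0.59 to 0.050, adjusted p = 0.238), with CYGB+ replicate 1 inside the NCE range. For PRIM2, the other primase subunit, CYGB+ replicate 1 at 10.43 was the highest of the 6 values and the difference of -0.13 (adjusted p = 0.724) became -0.39 and passed the test without the CYGB+ array that stood apart (adjusted p = 0.0398, range over 19 alternative settings 0.0171 to 0.995). With slide as a term its difference was 0.022.

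TOP2A, which untangles the daughter duplexes, read 10.23, 10.06 and 10.05 in NCE and 10.07, 9.56 and 9.92 in CYGB+ (difference -0.26, 95% interval -0.60 to 0.083, adjusted p = 0.285). CYGB+ replicate 2 was the lowest value, and CYGB+ replicate 1 lay among the NCE values. The nuclease FEN1 and the ligase LIG1, which finish the lagging strand, had differences of 0.093 and 0.090, and the subunits of the single-strand binding protein RPA ran from -0.23 (RPA1) to 0.24 (RPA3). With slide as a term RPA1 was at 0.21, RPA3 at -0.14, FEN1 at 0.30 and LIG1 at -0.12. Without the CYGB+ array that stood apart FEN1 was at 0.20 and LIG1 at 0.14.

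Ribonucleotide reductase and thymidylate synthase make the building blocks for DNA. RRM1, the large reductase subunit, read 12.55, 13.03 and 12.79 in NCE and 11.23, 12.15 and 12.52 in CYGB+. All 3 CYGB+ values were below the NCE values, but they spread widely, with replicate 1 far below replicate 3, and the test was not passed (difference -0.82, 95% interval -1.54 to -0.10, adjusted p = 0.126). With the replicate number as a block the adjusted p was 0.0378, and without the CYGB+ array that stood apart the difference was -0.50 (adjusted p = 0.0499, range over 19 alternative settings 0.0378 to 0.764). TYMS read 12.30, 12.02 and 12.42 in NCE and 12.13, 11.28 and 11.70 in CYGB+ (difference -0.55, adjusted p = 0.141), with CYGB+ replicate 1 inside the NCE range. Its adjusted p was 0.0489 with the replicate block and 0.00961 without the CYGB+ array that stood apart, where the difference was -0.76 (range over 19 alternative settings 0.00371 to 0.397). With slide as a term its difference was -1.02 (adjusted p = 0.284), the largest of the 48 genes in that fit. RRM2, the small reductase subunit, had a difference of 0.25 (adjusted p = 0.532), with overlap. It was at 0.015 without the CYGB+ array that stood apart and at 0.68 with slide as a term, and passed the test in 0 of 19 alternative settings (limma or the t-test, adjusted p from 0.167 to 0.967).

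Outside the 19 genes named by the rule, 29 members remained. None of these 29 passed the test: 10 had a difference below 0 and 19 above, from -0.55 (TYMS) to 0.31 (CDC45), with adjusted p from 0.0948 to 0.939. Of the 48 genes, 10 had further probes above background, 11 probes in all, of which 6 had the sign of the brightest probe, 5 the opposite sign and 0 passed the test.

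Because slide and group were nearly the same split, each lower gene was also compared with slide as a term, and within slide 2. With slide in an array-level limma fit, GINS1 (-0.93, adjusted p = 0.00822) and MCM8 (-0.97, adjusted p = 0.0362) still passed. This fit enters array repeats as samples linked by a correlation of 0.19, and not as averages. GINS4 (-0.61, adjusted p = 0.0912), PCNA (-0.60, adjusted p = 0.162) and MCM4 (-0.47, adjusted p = 0.153) kept similar differences without passing. DBF4 (-0.29, adjusted p = 0.716) and POLE2 (-0.40, adjusted p = 0.675) had smaller ones. Of the 41 members that had not passed the test, 12 changed sign with slide as a term, and 18 kept their sign while their difference changed by over 1.5 times. Without the CYGB+ array that stood apart, 6 of the 41 changed sign (MCM10, CDC6, ORC2, ORC5, ORC6 and POLD1) and 18 changed by over 1.5 times with the same sign.

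**Figure D3:**
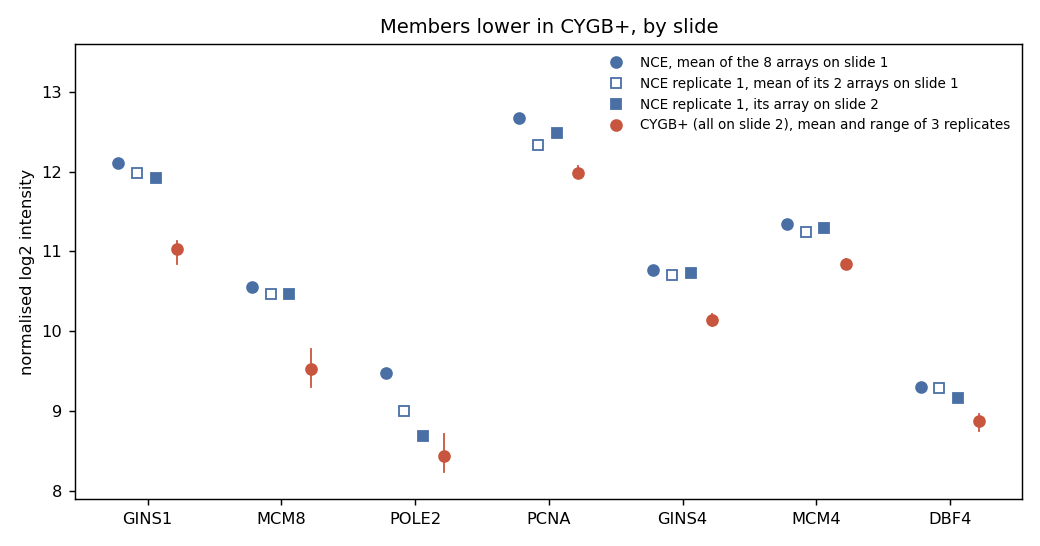
Normalised log2 intensity (vertical axis) of the 7 lower genes by slide: NCE on slide 1 (filled circles), the arrays of NCE replicate 1 on slide 1 (open squares) and on slide 2 (filled squares), and CYGB+, all on slide 2 (red, mean and range of 3 replicates). For GINS1 the slide 2 NCE array read 11.92 against a CYGB+ mean of 11.03, and for POLE2 8.69 against 8.44.

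As the plot by slide shows, the NCE array on slide 2 lay above all 3 CYGB+ replicates for 6 of the 7 genes, the exception being POLE2, where it read 8.69 and CYGB+ replicate 3 read 8.71. Within slide 2 the differences were -0.94 for MCM8, -0.89 for GINS1, -0.59 for GINS4, -0.49 for PCNA, -0.45 for MCM4, -0.29 for DBF4 and -0.26 for POLE2. With 1 NCE array on that slide these are values and not a test. Over all probes that array had a correlation of 0.982 with the slide 1 arrays of its own replicate and 0.969 with the CYGB+ arrays, or 0.975 with them once the array that stood apart was left out, where the slide 1 NCE arrays had 0.961 with CYGB+. The part of slide in the differences was not settled by these values. In the ranges that follow, the lowest adjusted p of every gene but DBF4 came from fitting arrays separately (limma). That fit enters array repeats as samples linked by a correlation of 0.18, so it does not rest on biological replicates alone. Over the other 19 alternative settings the adjusted p ran from 1.40e-06 to 0.0406 for GINS1, 3.11e-05 to 0.0560 for MCM8, 0.00155 to 0.675 for POLE2, 0.000530 to 0.162 for PCNA, 0.000263 to 0.122 for GINS4, 0.000793 to 0.186 for MCM4 and 0.0292 to 0.716 for DBF4.

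Leaving out each biological replicate in turn, GINS1 and MCM8 passed the test in all 6 fits. POLE2 did not pass without NCE replicate 2 (adjusted p = 0.132), NCE replicate 3 (0.120), CYGB+ replicate 1 (0.0710) or CYGB+ replicate 2 (0.0822). PCNA did not pass without NCE replicate 2 (adjusted p = 0.105), NCE replicate 3 (0.0979), CYGB+ replicate 2 (0.0575) or CYGB+ replicate 3 (0.0508). GINS4 passed without CYGB+ replicates 1 or 2 only, and MCM4 without CYGB+ replicate 1 only (highest adjusted p 0.0788 and 0.112). The difference of each of these genes stayed below 0 in every such fit.

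Of the 7 lower genes, GINS1, MCM8 and PCNA are on chromosome 20 and POLE2 is on chromosome 14. On chromosome 20, 125 of 339 measured genes were lower in CYGB+ (36.9%, median difference -0.40), and all 3 members there were among them. On chromosome 14, 96 of 407 genes were lower (23.6%, median -0.29), with POLE2 as the only member. Chromosome 21, with no member, had 79 of 122 genes lower (64.8%, median -0.62), and chromosome 5, also with none, had 154 of 537 genes higher (28.7%, median 0.27). The medians of the other 19 chromosomes lay between -0.075 and 0.092. These chromosomes were singled out after their values were seen, as those with over 20% of genes called in the same direction, so the counts are a description.

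**Figure D4:**
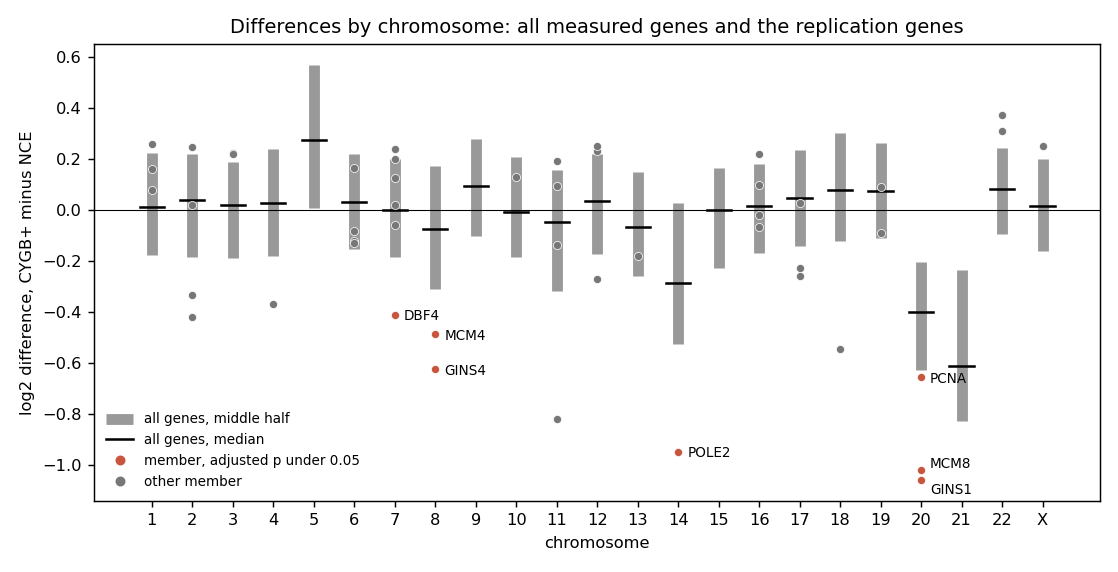
Log2 difference (CYGB+ minus NCE, vertical axis) by chromosome (horizontal axis): median of all measured genes (black bar), their middle quartiles (grey) and the 48 replication genes as points, red where adjusted p was under 0.05. The medians of chromosomes 14, 20 and 21 (-0.29, -0.40 and -0.62) lie below 0 and that of chromosome 5 (0.27) above, and 4 of the 7 red points are on chromosomes 14 and 20.

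Read against their own chromosome, the lower members differed. Of the 4 members on chromosomes 14 and 20 all 4 were lower. The other 44 members are all outside chromosomes 5, 14, 20 and 21, and 3 of them were lower (6.82%), beside 533 of 10717 genes outside these 4 chromosomes (4.97%). Among the 20 measured genes on each side, 38 of 40 neighbours of PCNA had a difference below 0 (median -0.51), as had 37 of 40 for MCM8 (median -0.50), 37 of 40 for POLE2 (median -0.38) and 33 of 40 for GINS1 (median -0.46). PCNA and MCM8 are close together and share neighbours. PCNA was thus 0.25 below the median of its chromosome in log2 units (difference minus median -0.25), whereas GINS1, MCM8 and POLE2 were further from theirs (-0.66, -0.62 and -0.66).

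GINS4 and MCM4 are both on chromosome 8, where 44 of 422 genes were lower (10.4%, median -0.075). Their neighbours had medians of -0.26 (30 of 40 below 0) and -0.19 (27 of 40 below 0). DBF4, on chromosome 7, had neighbours around 0 (22 of 40 below 0, median -0.020). RRM1, which did not pass the test, had 35 of 40 neighbours below 0 (median -0.31). DNA was not measured, and the part of gene position in these differences was not tested.

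**Figure D5:**
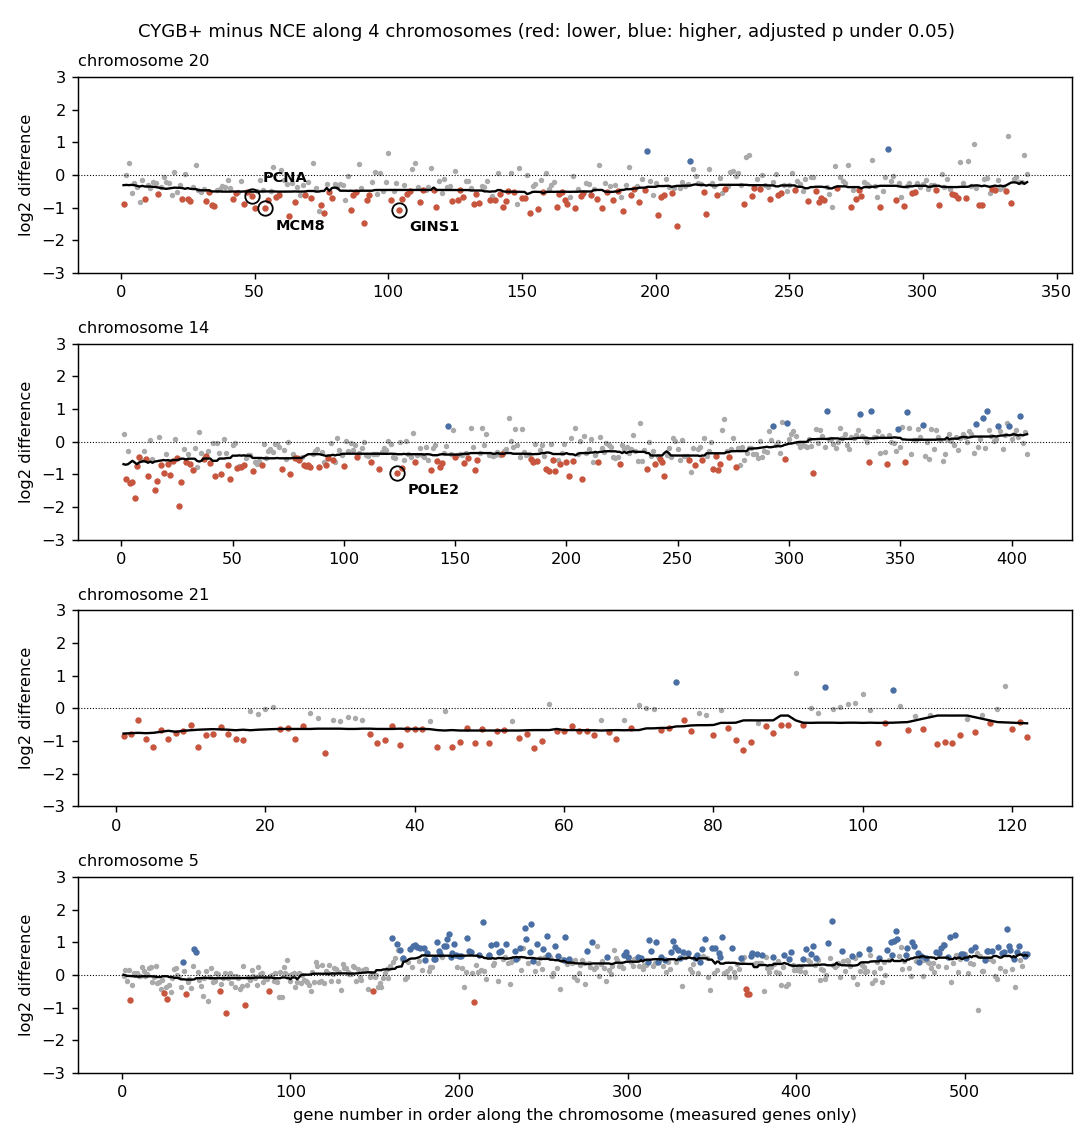
Log2 difference (CYGB+ minus NCE, vertical axes) of measured genes in their order along chromosomes 20, 14, 21 and 5 (horizontal axes), red where lower and blue where higher at adjusted p under 0.05, with the running median of 41 genes as a line and the replication genes circled. GINS1 (-1.06), MCM8 (-1.02), PCNA (-0.66) and POLE2 (-0.95) lie in stretches where most genes are below 0.

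In the plot of gene order, the running median stayed below 0 along chromosomes 20 and 21 and over most of chromosome 14, while on chromosome 5 it rose above 0 after the first part of the chromosome and stayed there. No replication gene of the set is on chromosomes 5 or 21.

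The promoters of the lower genes on chromosomes 14 and 20 are shown because E2F factors are known to bind many replication gene promoters. These genes were picked because they were lower, and joint regulation was not tested. RefSeq promoters (250 bases before to 50 after a start, build GRCh38.p14) were found for 42 of the 48 genes. They were searched on both strands for TTTCCCGC, TTTGGCGC, TTTCGCGC and TTTGCCGC, here called E2F-type words, and separately for CCAAT. An E2F-type word was in 1164 of 35116 promoters of all genes (3.32%), in 21 of 53 promoters of members (39.6%) and in at least 1 promoter of 21 of 42 members, among them 4 of the 5 lower genes with a promoter and 17 of the other 37. CCAAT was in 12155 of all promoters (34.6%) and in 30 of 53 promoters of members (56.6%). In the sequences below, written 5′ to 3′ in the direction of transcription, the capitals mark the E2F-type word: GINS1 at chr20:25407423-25407722 (plus strand), MCM8 at chr20:5950402-5950701 (plus strand), PCNA at chr20:5126573-5126872 (minus strand) and POLE2 at chr14:49688165-49688464 (minus strand).
GINS1: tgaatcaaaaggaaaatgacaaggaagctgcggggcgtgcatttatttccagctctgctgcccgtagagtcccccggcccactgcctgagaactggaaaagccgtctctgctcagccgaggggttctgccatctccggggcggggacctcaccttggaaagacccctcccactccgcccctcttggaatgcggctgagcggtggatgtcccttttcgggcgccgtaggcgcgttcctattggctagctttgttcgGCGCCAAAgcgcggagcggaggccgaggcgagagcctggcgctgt
MCM8: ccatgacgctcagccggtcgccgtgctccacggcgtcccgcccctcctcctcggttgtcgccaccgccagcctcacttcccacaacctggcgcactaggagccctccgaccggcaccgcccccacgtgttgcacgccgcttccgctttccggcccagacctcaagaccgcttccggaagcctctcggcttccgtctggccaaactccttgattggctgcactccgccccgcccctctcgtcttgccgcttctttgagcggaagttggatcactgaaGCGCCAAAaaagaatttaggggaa
PCNA: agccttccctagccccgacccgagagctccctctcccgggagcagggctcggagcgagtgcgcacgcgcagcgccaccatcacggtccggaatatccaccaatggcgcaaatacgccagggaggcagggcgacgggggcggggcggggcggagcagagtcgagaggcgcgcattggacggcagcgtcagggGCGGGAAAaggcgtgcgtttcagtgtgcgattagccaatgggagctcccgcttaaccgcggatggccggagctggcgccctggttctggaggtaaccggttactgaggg
POLE2: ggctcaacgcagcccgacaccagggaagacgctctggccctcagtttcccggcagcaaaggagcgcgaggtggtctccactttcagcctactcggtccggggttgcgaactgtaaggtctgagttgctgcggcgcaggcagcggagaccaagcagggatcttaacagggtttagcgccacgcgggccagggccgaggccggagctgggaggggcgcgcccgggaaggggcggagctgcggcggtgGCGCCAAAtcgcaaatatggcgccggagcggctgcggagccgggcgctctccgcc

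All 4 matches read as the reverse complement of a word, which for GINS1, MCM8 and POLE2 was TTTGGCGC and for PCNA TTTCCCGC. PCNA has another start, whose promoter held no such word, and the DBF4 promoter held none. A match is a description of the letters in this window, and binding was not measured.

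Other genes of DNA replication and the cell cycle, from 5 lists, gave 15 lower and 4 higher genes (median -0.058), beside 6.97% and 6.76% of all genes. Of 31 other fork and origin genes, 6 were lower and 2 higher (median -0.065). DONSON, which helps to assemble the helicase, read 8.69, 8.95 and 9.20 in NCE and 7.57, 7.91 and 7.98 in CYGB+ (difference -1.12, adjusted p = 0.00895). SUPT16H, a histone chaperone subunit, had a difference of -0.73 (adjusted p = 0.0220), and RNASEH2C, a subunit of the RNase that removes RNA from DNA, rose by 0.88 (adjusted p = 0.01004). In all 3 genes, which were picked as past the threshold, the groups did not overlap. DONSON passed the test in 18 of 19 alternative settings, RNASEH2C in 15 and SUPT16H in 14, and with slide as a term RNASEH2C was at 0.49 (adjusted p = 0.326, the highest of the 19, lowest 0.000219) and SUPT16H at -0.63 (adjusted p = 0.158, the highest of the 19, lowest 0.000365). Of 16 nucleotide supply genes 1 was lower, the purine synthesis enzyme GART (-0.98, adjusted p = 0.00394), in 3 of 3 replicates (median of the list 0.017).

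Of 23 genes of E2F and G1/S control, 2 were lower and 0 higher (limma, median -0.098): cyclin E1 (CCNE1, -0.65, adjusted p = 0.0232) and the pocket protein RBL1 (-0.65, adjusted p = 0.0199), each lower in 3 of 3 replicates and each past the threshold in 14 of 19 alternative settings. Of 13 fork checkpoint genes, 1 was lower and 0 higher (limma, median -0.058). This was WEE1, the kinase that restrains CDK1 (-0.98, adjusted p = 0.00938), with all 3 CYGB+ replicates below NCE. Of 26 mitosis genes, 5 were lower and 1 higher (median -0.031). The cytokinesis protein ANLN (-0.85), the spindle factor TPX2 (-0.84) and the kinase AURKA (-0.74) had the largest differences, with adjusted p of 0.00798, 0.00830 and 0.0262 and no overlap between groups. They passed the test in 18, 17 and 11 of 19 alternative settings. By position, 10 of the 15 lower list genes are on chromosomes 14, 20 or 21, which hold 14 of the list genes measured, beside 300 of 846 lower genes over all genes (35.5%). Of the 4 higher list genes 2 are on chromosome 5, which holds 8 list genes, beside 154 of 820 higher genes over all genes (18.8%).

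The labelled cell type was read from markers. All 11 of 11 squamous epithelial markers were above background, SFN being the brightest, and their summed level was 68814, 77923 and 74558 intensity units in NCE replicates 1 to 3 and 71141, 90873 and 71689 in CYGB+. The median difference of the list was -0.0071. KRT6A, a keratin of stressed epithelium, was lower in CYGB+ (-0.46, adjusted p = 0.0456) in 3 of 3 replicates and was the only marker of the list past the threshold, while other keratins had differences of 0.76 (KRT14, adjusted p = 0.0610), 0.63 (KRT17), 0.17 (KRT5) and -0.0071 (KRT13). Of 7 fibroblast markers 2 were above background, with a sum of 350, 303 and 307 in NCE and 202, 189 and 173 in CYGB+. COL1A2 was lower (-1.32, adjusted p = 0.00278) in 3 of 3 replicates, whereas the other, COL1A1, had a difference of 0.10 (adjusted p = 0.696), so the lower sum rested on COL1A2. The markers COL3A1, PDGFRB and LUM were not above background on any array. Of 5 leukocyte markers 2 (CD68 and CD14) and of 4 endothelial markers 1 (CDH5) were above background, with sums from 658 to 807 and from 81.9 to 95.2. The part of these markers in the differences of the replication genes was not tested.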

How the data were processed

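Labelled RNA was hybridised to Agilent 8x60K human arrays scanned by a 2-colour protocol, and per the file headers the deposited scanner tables came from Agilent Feature Extraction and hold background, median and processed intensity values for each spot. The planned mean signal is not in those tables, so the median signal was used. The authors also deposited a matrix of scaled green signals on a natural log scale, centred per probe, used only as an alternative. The labels give Cy3 (green) for every sample, while the study's methods give Cy5 (red) for control cells and Cy3 for CYGB+ cells. The green channel was used for all arrays, following the labels, and the red channel was left out.

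Green median intensities were background-corrected by normexp (offset 50) in limma 3.58.1 under R 4.3.3, set on a log2 scale and quantile normalised. Outlier spots were removed, spots and array repeats were averaged, and probes well above background on every array of at least 1 group were kept (19791 of 42405). CYGB+ and NCE were compared with limma's moderated test, two-sided, with Benjamini-Hochberg adjustment over all kept probes at 0.05. Of 27310 probes with a RefSeq accession, 25422 matched a gene of the RefSeq table (assembly GRCh38.p14), which was used for names, chromosomes and gene order, whereas the array was designed on another build. GINS4 and MCM4 had no promoter entry. Figures were drawn with matplotlib.

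Values per replicate were given for the 12 largest differences past the threshold, the largest difference of each role, and MCM2 to MCM7, CDC6, CDT1, GMNN and PCNA; from each list, the 3 largest past the threshold, except that 1 list gene is not reported here. TYMS and other members outside this rule were chosen after their values were seen. Members and lists were chosen with earlier results of these data known. The labels give each group replicates 1 to 3 from RNA extracted on 3 occasions, so a replicate block was fitted as an alternative. Deviations from the group means correlated across probes at r = 0.22, 0.23 and 0.31 for same-numbered replicates. Unlike numbers had -0.52 to 0.31. Among them were 0.21 (NCE 1 with CYGB+ 2), 0.31 (NCE 2 with CYGB+ 3) and 0.16 (NCE 3 with CYGB+ 1), and the others were below 0. These values thus do not tell same-numbered pairs from that other pairing. With 3 replicates per group, the number of arrays limits the precision.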

Additional observations from a re-analysis of the deposited data

Results flagged for a closer look

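The mean correlation of CYGB+ replicate 1, array repeat 1, with the other CYGB+ arrays was 0.928, and the others ran from 0.969 to 0.976; the array was picked out because its gap to the nearest was large for a group of 6. The same was true of NCE replicate 3, array repeat 2, at 0.969, where the other NCE arrays ran from 0.980 to 0.988. Chance picks out such an array in about 1 in 20 groups. Without the CYGB+ array, 10 members were lower and 1 (POLE) was higher, and 6 of the 10 were among the 7. More of all probes were called in both directions too, with the counts given below.

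The red channel, which no comparison here used, also held signal: all 48 members were well above background in it on every array, as were between 50.3% and 57.0% of gene probes. The labels do not say which RNA it holds, and the study's methods, which give Cy5 for control cells and Cy3 for CYGB+ cells, differ from the labels, which give Cy3 for every sample. Which of these holds was not tested.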

How the results depend on the processing

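The counts of lower and higher genes, the member median and the differences of the genes named by the rule were recomputed under 20 alternatives (19 for CDC6), 18 planned and 2 chosen after seeing the data (leaving out CYGB+ replicate 1, array repeat 1, or this array with the next lowest CYGB+ array, replicate 3, array repeat 2, and NCE replicate 3, array repeat 2). The median over the 48 members moved by less than the spread between replicates in all 20. The 7 lower members kept their sign in all 20. Within slide 2 only 1 NCE array is left, so the calls there say nothing about stability. In the other 19 settings GINS1 passed the test in 19, MCM8 in 18, POLE2 in 12, PCNA in 11, GINS4 in 10, MCM4 in 8 and DBF4 in 5.

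Against 7 lower and 0 higher members, 15 lower and 4 higher list genes, and 1169 lower and 1205 higher probes, the counts that moved were these. Processed signals gave 4 lower members and 2 higher list genes with quantile scaling, and 3 lower members, 8 lower and 2 higher list genes with 75th percentile scaling. With normexp and the 75th percentile, 767 probes were lower and 2 list genes higher. Fitting arrays separately gave 3 higher members (CDC45, RFC5 and POLA1), 25 lower list genes, and 2292 lower and 2390 higher probes. That fit enters array repeats as linked samples, so its counts do not rest on biological replicates alone. With slide as a term, 2 members were lower, 5 list genes lower and 0 higher, and 440 probes lower and 274 higher. Within slide 2, by limma, 0 members were lower, 0 list genes lower, 0 higher, and 2 probes lower and 3 higher. The t-test gave 1 lower member, 3 lower and 0 higher list genes, and 357 lower and 444 higher probes. The deposited matrix gave 3 lower members, 9 lower and 2 higher list genes, and 680 lower and 764 higher probes.

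Without the 1 array, 1 member was higher, with 2009 probes lower and 2077 higher; without 3 arrays, 2 members (MCM2 and POLE) were higher, with 24 list genes lower and 2410 probes lower and 2593 higher. Leaving out each replicate gave 2 to 7 lower and 0 to 0 higher members, 5 to 17 lower and 0 to 4 higher list genes, 244 to 1149 lower and 246 to 1280 higher probes, and a member median from -0.057 to 0.025. The fewest members (2) were lower without NCE replicate 2 or NCE replicate 3. In the fits without a replicate, fewer samples were tested. For the other settings the cause was not tested.

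With the replicate block, 9 members were lower, the 7 and RRM1 and TYMS, and 0 were higher. It changed no other call among the members. The share of all probes called in this fit is not given here, so the 9 are not read against it.

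Among the members named by the rule and CYGB, signs turned for 5 genes, none of which passed the test in any of the 20 settings. CDC6 was -0.015 and -0.063 with processed signals (quantile and 75th percentile), -0.051 and -0.066 without 1 and 3 arrays, and between -0.030 and 0.066 without single replicates (-0.030 without NCE replicate 1 and -0.019 without CYGB+ replicate 3). CDT1 was 0.083 (processed, 75th percentile), 0.018 (normexp, 75th percentile), 0.084 (matrix) and between -0.085 and 0.029 without single replicates (0.029 without NCE replicate 3, and 0.022 and 0.00075 without CYGB+ replicates 1 and 2). GMNN was 0.10 (processed, 75th percentile), 0.22 (slide term), 0.31 (within slide 2) and 0.0035 (matrix). MCM3 was -0.25 (slide term) and -0.26 (within slide 2). CYGB was 0.091 (processed, 75th percentile), 0.047 (matrix) and between -0.31 and 0.22 without single replicates (0.026 without NCE replicate 2 and 0.22 without CYGB+ replicate 1). The cause was not tested. All 48 members were well above background on all 15 arrays, so low signal did not limit which members were read.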
